A study of Mus musculus with 6 samples.

Results

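The genes described are the Wnt ligands, the proteins that secrete them, their receptors, secreted inhibitors, R-spondins and a few feedback and target genes. Members were chosen by name, with earlier results of these data known. They are protein-coding genes whose symbols begin with Wnt, Fzd, Sfrp, Dkk, Rspo or Nkd followed by a number. Added to these are Frzb, Wif1, Lrp5, Lrp6, Lgr4, Lgr5, Porcn, Wls, Axin2, Lef1, Tcf7, Notum and Ror2. 43 of the 15634 listed genes were members, and all 43 passed the low-count filter. RNA sequencing was done on mesenchymal stem cells (MSCs, adherent stromal cells that can form bone, cartilage and fat) grown from bone marrow of wild-type (WT) C57BL/6J mice. The TNF group held 3 libraries from cells stimulated with 10 ng/mL TNF-α, an inflammatory cytokine, for 24 h. The Control group held 3 libraries from untreated cells at 24 h. Both groups grew in the same serum-containing medium, and the labels give neither the age of the mice nor the origin of the replicates (cultures or animals). P-values therefore measure only the spread between these samples, which may be technical.

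Wnt proteins are secreted lipid-modified ligands that bind Frizzled receptors. With the co-receptors Lrp5 or Lrp6 they keep beta-catenin from being degraded, so that it enters the nucleus and acts with TCF/LEF factors on target genes. Other Wnt signals run through Ror2 or the planar polarity proteins without beta-catenin. In bone marrow stroma, Wnt signalling is known for promoting osteoblast formation and restraining fat cell formation.

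Total counts ranged from 45629973 to 55149746 in TNF libraries and from 54141846 to 77142418 in Control libraries. Ribosomal 18S RNA took 19.4% of all counts in TNF library 2, but no more than 3.55% elsewhere. Control library 2 had 4.45% mitochondrial mRNA, against 1.59% to 2.16% in the rest. Without both libraries numbered 2, a setting chosen after seeing the data, 27 members were called lower and 5 higher, as with all libraries. The higher calls were not the same: Wnt10a (adjusted p = 0.0639) and Wnt2b (adjusted p = 0.0989) lost theirs, while Fzd7 (adjusted p = 0.000439) and Wnt7b (adjusted p = 0.0454) gained one. Of all 15547 tested genes, 16.4% were called lower and 16.0% higher by edgeR's quasi-likelihood test (Benjamini-Hochberg adjusted p under 0.05), and the marker counts below are read against these shares. All 12 stromal markers looked for, such as Pdgfrb and Prrx1, were among the listed genes, with summed levels of 4051 to 4759 TPM (transcript abundance scaled for length and library size) in TNF libraries and 6882 to 7852 TPM in Control libraries. Without the collagen genes Col1a1 and Col1a2 the sums of the other 10 were 1282 to 1539 TPM in TNF libraries and 1556 to 1836 TPM in Control libraries. Of the 12, Col1a1, Col1a2 and Thy1 fell, and Cd44, Pdgfra and Lepr rose. Macrophage markers were present too. 19 of 20 were listed, summing to between 2583 and 3128 TPM in TNF libraries and between 3637 and 5106 TPM in Control libraries, with none of the 19 at 0 in any library. Of these, 8 fell (42.1%) and 3 rose (15.8%, close to the share over all genes), and 5 rose without Control library 2. All 8 osteoblast markers were listed, with sums of 25.4 to 42.9 TPM in TNF libraries and 88.5 to 92.0 TPM in Control libraries, and 6 of the 8 fell. Among them, Dmp1 (called lower) and Phex (not called) reached 10 counts in 3 libraries only through Control libraries, where they were higher. Their place among the listed genes, and the fall of Dmp1, are not free of that selection. Adipocyte markers, 4 of 7 listed, summed to 360 to 423 TPM in TNF libraries and 249 to 354 TPM in Control libraries, most of it Lpl. Lpl and Fabp4 rose, while Cebpa and Pparg fell. Only 2 of 7 endothelial markers were listed, and their sum was at most 0.269 TPM in TNF libraries and 0.381 TPM in Control libraries. In bulk RNA, fewer cells of a type and less RNA per cell cannot be told apart, and the part of these markers' shifts in the Wnt results was not tested.

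TNF libraries were set against Control libraries to ask how TNF-α stimulation moves the transcripts of the pathway. Most of the Wnt genes were lower in TNF. The largest falls were those of Nkd1, an intracellular inhibitor of Wnt signalling, and the ligand Wnt4, both over 8-fold lower in TNF. Rspo3 and Rspo2, secreted enhancers of Wnt signalling, rose, and so did the scarce ligands Wnt6, Wnt10a and Wnt2b. 27 of the 43 members (62.8%) were called lower by edgeR's quasi-likelihood test with a false discovery rate (Benjamini-Hochberg) under 0.05, where 16.4% of all 15547 tested genes were. 5 members (11.6%) were called higher, where 16.0% of all tested genes were, so the share of higher calls was no larger than the background. The median log2 fold change was -0.59 over the members and -0.005 over all tested genes. In 30 members all 3 TNF libraries lay below all 3 Control libraries (24.7% of all tested genes), and in 8 they lay above (24.0%). Calls with a 2-fold or larger change were 10 lower members (5.22% of all tested genes) and 3 higher members (5.81%).

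Leaving out each library in turn, 23 members were called lower in all 6 repeats (10.3% of all tested genes) and 2 were called higher in all 6 (10.5%). The higher calls were 2 without TNF library 1, 3 without TNF library 2 and 3 without Control library 3, while the lower calls stayed between 24 and 26. In the same 3 repeats, higher calls over all genes were 1721, 2097 and 2231, against 2489 with all libraries. Lower calls over all genes were 1728, 2073 and 2253, against 2550 with all libraries. With library totals as the only scaling, 27 members were lower and 4 higher. Over all genes it called 2571 lower and 1612 higher, a share of higher calls of 38.5%, where TMM factors gave 49.4%.

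**Figure D1:**
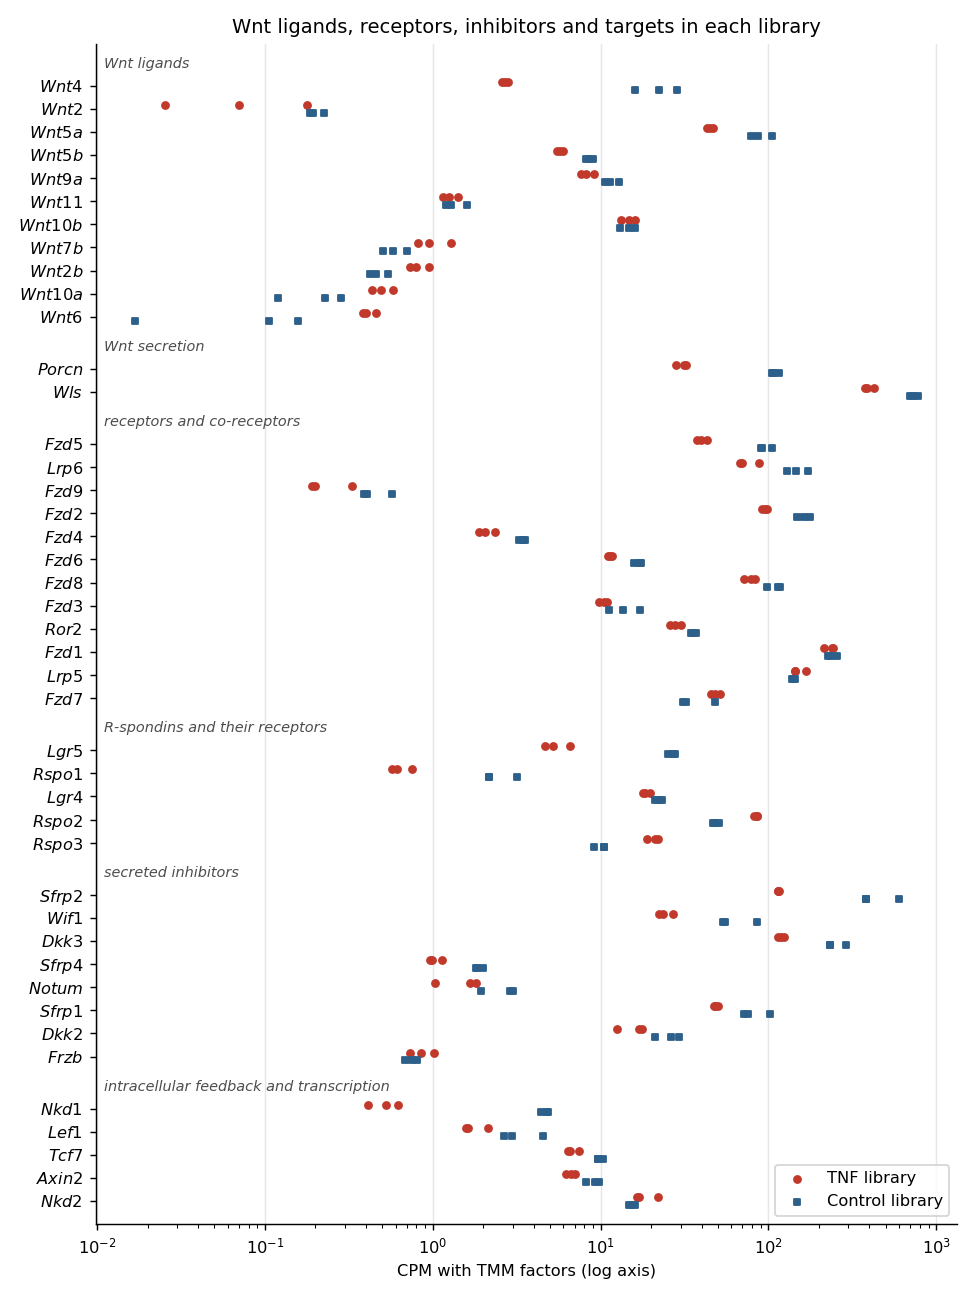
Level (CPM, log axis) of each of the 43 members in each library, grouped by role, with TNF libraries as red circles above Control libraries as blue squares. In 30 rows every red point lies left of every blue point, from the small gap of Fzd3 to the wide gaps of Wnt4, Lgr5 and Nkd1.

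To show what lies at the starts of genes that moved, 5 promoter windows are printed, those of the 2 members with the largest falls (Nkd1 and Wnt4), of the ligand with the largest fitted rise (Wnt6), and of the members called lower whose windows held a kappa-B match (Rspo1) or a TCF/LEF match in a ligand gene (Wnt5b, the window of 1 of its 3 starts). Each runs from 250 bases before to 50 bases after a RefSeq start, 5′ to 3′ along the gene, with GRCm38.p6 coordinates from RefSeq. Capitals mark matches to a TCF/LEF word (CTTTG followed by 2 bases that are each A or T) or to the NF-kB kappa-B consensus, on either strand.
Nkd1, chr8:88527383-88527682, plus strand: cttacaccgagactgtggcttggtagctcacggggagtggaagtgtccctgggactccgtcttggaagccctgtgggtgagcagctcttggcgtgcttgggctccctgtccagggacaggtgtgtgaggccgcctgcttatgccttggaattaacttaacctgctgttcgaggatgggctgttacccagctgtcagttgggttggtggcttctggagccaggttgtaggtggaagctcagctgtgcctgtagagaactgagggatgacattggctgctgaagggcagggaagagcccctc
Wnt4, chr4:137277385-137277684, plus strand: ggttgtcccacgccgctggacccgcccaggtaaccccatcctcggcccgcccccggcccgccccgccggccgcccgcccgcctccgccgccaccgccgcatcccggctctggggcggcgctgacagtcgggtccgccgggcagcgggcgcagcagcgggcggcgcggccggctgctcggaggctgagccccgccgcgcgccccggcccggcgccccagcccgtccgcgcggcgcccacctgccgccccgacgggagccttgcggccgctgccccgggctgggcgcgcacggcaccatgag
Wnt6, chr1:74771642-74771941, plus strand: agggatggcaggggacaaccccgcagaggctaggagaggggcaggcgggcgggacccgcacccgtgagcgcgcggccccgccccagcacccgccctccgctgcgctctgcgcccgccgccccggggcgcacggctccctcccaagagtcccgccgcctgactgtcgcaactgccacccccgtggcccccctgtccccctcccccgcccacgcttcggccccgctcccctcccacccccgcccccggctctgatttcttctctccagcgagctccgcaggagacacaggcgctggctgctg
Rspo1, chr4:124986180-124986479, plus strand: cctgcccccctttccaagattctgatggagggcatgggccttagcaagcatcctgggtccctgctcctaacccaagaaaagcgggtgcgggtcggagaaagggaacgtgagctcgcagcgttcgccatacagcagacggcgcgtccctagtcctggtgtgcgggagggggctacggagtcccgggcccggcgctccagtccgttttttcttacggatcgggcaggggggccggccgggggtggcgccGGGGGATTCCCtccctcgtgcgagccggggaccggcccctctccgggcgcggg
Wnt5b, chr6:119449337-119449636, minus strand: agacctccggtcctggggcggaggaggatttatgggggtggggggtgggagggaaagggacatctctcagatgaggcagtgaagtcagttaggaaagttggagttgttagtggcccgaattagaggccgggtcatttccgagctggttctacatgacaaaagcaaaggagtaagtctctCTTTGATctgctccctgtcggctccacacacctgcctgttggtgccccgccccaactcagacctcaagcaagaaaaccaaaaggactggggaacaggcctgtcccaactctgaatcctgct
Of the 43 members, 26 had such windows, 33 in all. A TCF/LEF word was found in 4 of the 33 windows (12.1%), at starts of Fzd7, Lef1, Wnt11 and Wnt5b, where 16.9% of all 32851 windows held one. The kappa-B consensus was found in 2 windows (6.06%), those of Rspo1 and Wnt10b, where 4.51% of all windows held one. In the Rspo1 window 3 overlapping matches, on both strands, span the start itself. The windows of Nkd1, Wnt4 and Wnt6 held neither, which says only that these letters are absent from these windows.

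Among the 11 ligand genes, 4 fell (36.4%) and 3 rose (27.3%), where 16.4% and 16.0% of all tested genes did. None was called higher without TNF library 1, and 1 was without Control 2, Control 3 or TNF 2. The 4 that fell were among the 5 most abundant ligands of Control cells, while the 3 that rose were all under 1 CPM in both groups. Values below are CPM (counts scaled to library size with TMM factors), in the order of libraries 1, 2 and 3 of each group.

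Wnt4, a ligand required for kidney and female reproductive tract development, had 2.69, 2.58 and 2.81 CPM in TNF libraries, against 22.3, 16.0 and 28.6 CPM in Control libraries. Its groups were widely apart, with TNF values close together and Control values more spread (log2 fold change -3.04 ± 0.21 SE, 8.25-fold lower in TNF, adjusted p = 1.19e-05 in edgeR's quasi-likelihood fit). Wnt5a, the best-known ligand that signals without beta-catenin, had 43.2, 44.8 and 46.9 CPM in TNF libraries, against 86.4, 106 and 78.9 CPM in Control libraries. Every TNF value was below every Control value (log2 fold change -1.01 ± 0.11 SE, adjusted p = 0.000227). Its close relative Wnt5b had 5.53, 5.95 and 5.74 CPM in TNF libraries, against 8.20, 9.04 and 8.58 CPM in Control libraries, without overlap (log2 fold change -0.59). Wnt9a, which takes part in joint formation, had 7.64, 9.14 and 8.16 CPM in TNF libraries, against 11.3, 10.6 and 12.8 CPM in Control libraries. This difference, of -0.48 ± 0.11 SE on the log2 scale, was called with all libraries (adjusted p = 0.0111) and not without TNF library 1 (adjusted p = 0.0547).

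Wnt6 had counts of 23, 15 and 23 in TNF libraries, against 1, 8 and 9 in Control libraries. Every listed gene had at least 10 counts in at least 3 libraries. Wnt6 met this only through TNF libraries, the group where it was higher, so its fold change is not free of that selection. Its ratio of summed counts was 4.43 (exact 95% counting interval 2.59 to 7.97, which covers counting error only). The fitted rise of Wnt6 was 2.12 on the log2 scale (adjusted p = 0.0143 in edgeR's quasi-likelihood fit). Without TNF library 1 the rise was 2.04, and the call was lost (adjusted p = 0.0530 in that fit). Wnt10a had 0.577, 0.434 and 0.488 CPM in TNF libraries, against 0.286, 0.119 and 0.228 CPM in Control libraries. It was called higher with all libraries (adjusted p = 0.0295), and the call was lost on leaving out any library except Control 1 (adjusted p 0.0503 to 0.103). Wnt2b had 0.955, 0.792 and 0.732 CPM in TNF libraries, against 0.538, 0.423 and 0.457 CPM in Control libraries. Its call (adjusted p = 0.0363) was lost on leaving out any library except TNF 3 (adjusted p 0.0638 to 0.135). These ligands, each with fewer than 50 counts in any library, rest on little data.

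The 4 ligands that did not pass the test include Wnt10b, which promotes osteoblast over fat cell formation. Wnt10b had 13.3, 14.9 and 16.0 CPM in TNF libraries, against 16.0, 14.8 and 13.1 CPM in Control libraries, with fully overlapping groups (log2 fold change 0.01 ± 0.11 SE, adjusted p = 0.947). Wnt11 had 1.41, 1.25 and 1.15 CPM in TNF libraries, against 1.60, 1.20 and 1.28 CPM in Control libraries, again with overlap. Wnt7b had 0.816, 0.945 and 1.29 CPM in TNF libraries, against 0.504, 0.701 and 0.580 CPM in Control libraries. Its groups did not overlap, yet it missed the threshold (adjusted p = 0.0543). Wnt2, with 9, 1 and 4 counts in TNF libraries and 11, 17 and 11 in Control libraries, had few counts in either group (adjusted p = 0.165, and 0.0464 without TNF library 1). It reached the count floor of the listed genes only through Control libraries.

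Levels of different genes were compared in TPM, which accounts for transcript length. Summed over the 11 ligands, TNF libraries held 34.8, 32.9 and 37.9 TPM, against 65.4, 57.0 and 62.6 TPM in Control libraries. Wnt5a was the most abundant ligand in both groups, with 33.8 ± 0.879% of the ligand TPM in TNF and 41.4 ± 4.79% in Control (SD, n = 3 each). Wnt4 took 3.04 ± 0.205% in TNF and 15.1 ± 4.37% in Control, and moved to the sixth place in TNF, against the third in Control. Wnt10b, whose own level did not pass the test, took 29.6 ± 1.26% in TNF and 17.9 ± 1.84% in Control. These shares are a description of the same transcripts and were not tested.

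**Figure D2:**
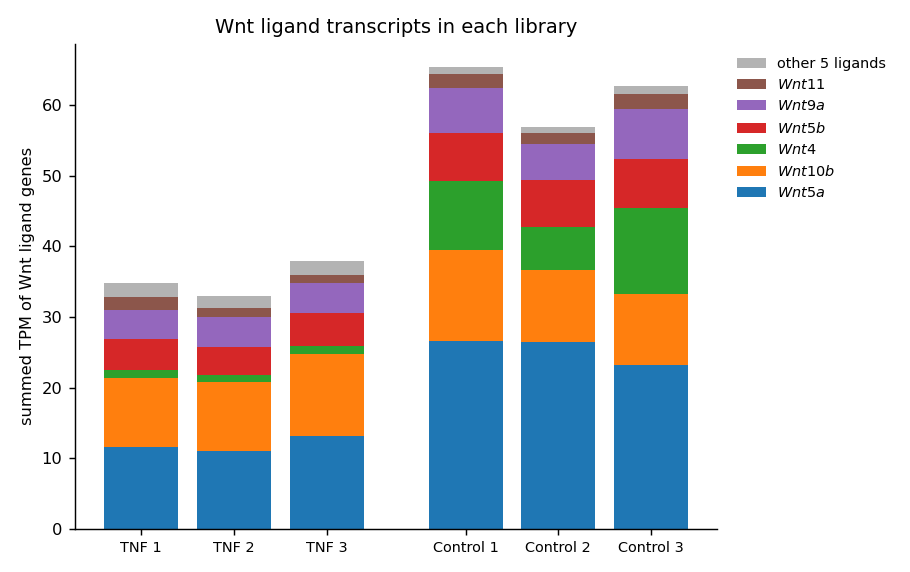
Summed TPM of the 11 Wnt ligand genes in each library, TNF libraries left and Control libraries right, with the 6 ligands most abundant in Control coloured and the other 5 in grey. The stacks reach 32.9 to 37.9 TPM in TNF and 57.0 to 65.4 TPM in Control, with the green Wnt4 segment small in every TNF library and the orange Wnt10b segment of similar height in all 6.

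Both genes of Wnt secretion fell, where 16.4% of all tested genes did. Porcn, the enzyme that attaches the fatty acid every Wnt needs for secretion and receptor binding, had 32.4, 28.1 and 31.4 CPM in TNF libraries, against 105, 116 and 107 CPM in Control libraries. The TNF values were 3.56-fold lower (log2 fold change -1.83 ± 0.09 SE, adjusted p = 1.69e-06 in edgeR's quasi-likelihood fit), and no member had a smaller adjusted p. Wls, which carries Wnt proteins to the cell surface, had 387, 377 and 423 CPM in TNF libraries, against 730, 781 and 701 CPM in Control libraries. It was 1.86-fold lower in TNF (log2 fold change -0.90 ± 0.10 SE, adjusted p = 0.000242). In TPM, Wls had the highest mean of all members in both groups, 223 ± 29.7 in TNF and 449 ± 20.0 in Control (SD, n = 3 each), next to Sfrp2 at 104 ± 10.4 in TNF and 431 ± 86.5 in Control, whose Control libraries overlapped those of Wls.

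Of the 12 receptor genes 7 fell (58.3%, against 16.4% of all tested genes), none rose (against 16.0%) and 5 did not pass the test. All 7 remained called lower whichever library was left out. Fzd5 had 39.7, 43.2 and 37.6 CPM in TNF libraries, against 90.9, 104 and 89.8 CPM in Control libraries. Fzd2 had 97.9, 96.0 and 91.6 CPM in TNF libraries, against 163, 147 and 177 CPM in Control libraries. Both Frizzled receptors were separate between the groups, with log2 fold changes of -1.24 ± 0.10 and -0.77 ± 0.09 SE (adjusted p = 2.27e-05 and 0.000297 in edgeR's quasi-likelihood fit). Lrp6, a co-receptor for beta-catenin signalling, had 69.5, 87.9 and 67.9 CPM in TNF libraries, against 146, 173 and 130 CPM in Control libraries. The library numbered 2 was the highest in each group, and the groups stayed apart (log2 fold change -0.99 ± 0.14 SE, adjusted p = 0.000721).

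Smaller falls were those of Fzd4 (-0.70 on the log2 scale), Fzd6 (-0.56), Fzd8 (-0.50) and Ror2 (-0.36). Fzd6 had 11.4, 11.7 and 11.1 CPM in TNF libraries, against 17.1, 15.9 and 17.5 CPM in Control libraries, and Fzd8 had 82.9, 79.0 and 71.2 CPM in TNF libraries, against 115, 97.7 and 117 CPM in Control libraries. Fzd4 was the least abundant of these, with 2.05, 1.89 and 2.35 CPM in TNF libraries, against 3.56, 3.28 and 3.43 CPM in Control libraries. None of the 3 overlapped between groups. Ror2, a tyrosine kinase-like receptor of Wnt5a, had 30.2, 27.6 and 25.8 CPM in TNF libraries, against 34.4, 35.7 and 37.0 CPM in Control libraries (adjusted p = 0.0130). On log2 TPM with a pseudocount of 1 it missed the threshold (limma adjusted p = 0.0978).

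Fzd1, the receptor with the highest mean TPM in both groups, had 239, 244 and 213 CPM in TNF libraries, against 225, 257 and 235 CPM in Control libraries. Lrp5, the other co-receptor, for which inherited variants alter bone mass in humans, had 168, 144 and 145 CPM in TNF libraries, against 137, 144 and 140 CPM in Control libraries. Neither passed the test (log2 fold changes -0.04 ± 0.10 and 0.12 ± 0.09 SE, adjusted p = 0.766 and 0.349 in edgeR's quasi-likelihood fit), while Lrp6 fell. The difference between Lrp5 and Lrp6 in their response was not tested. Fzd7 had 45.7, 47.8 and 51.8 CPM in TNF libraries, against 32.3, 48.2 and 30.8 CPM in Control libraries. Control library 2 alone reached the TNF values. With all libraries Fzd7 was not called (log2 fold change 0.38 ± 0.16 SE, adjusted p = 0.107), and without Control library 2 it was called higher (0.62, adjusted p = 0.000812). Fzd3 (adjusted p = 0.0535, and 0.0163 without Control library 3) and Fzd9 (adjusted p = 0.0669, and 0.0478 without TNF library 2) were lower in every TNF library than in any Control library. Fzd9 stayed under 1 CPM throughout.

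R-spondins bind Lgr receptors and protect Frizzled and Lrp receptors from removal by the ubiquitin ligases Znrf3 and Rnf43. Of these 5 genes 2 rose and 3 fell, where 16.0% and 16.4% of all tested genes did. Of the 3 falls, 2 remained called whichever library was left out. Rspo3 had 21.8, 21.1 and 18.9 CPM in TNF libraries, against 9.16, 10.5 and 10.5 CPM in Control libraries. Rspo2 had 85.2, 85.9 and 81.5 CPM in TNF libraries, against 48.3, 50.8 and 46.9 CPM in Control libraries. Both rose with clear gaps between the groups, 2.04-fold and 1.73-fold (log2 fold changes 1.03 ± 0.10 and 0.79 ± 0.08 SE, adjusted p = 9.19e-05 and 8.18e-05 in edgeR's quasi-likelihood fit), and they were the 2 members that remained called higher whichever library was left out.

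Rspo1, the least abundant R-spondin here, had 0.756, 0.613 and 0.575 CPM in TNF libraries, against 2.15, 2.17 and 3.16 CPM in Control libraries. It fell 3.83-fold (log2 fold change -1.94 ± 0.23 SE, adjusted p = 0.000301), in the direction opposite to Rspo2 and Rspo3. Lgr5, an R-spondin receptor and a marker of several adult stem cells, had 5.23, 6.59 and 4.69 CPM in TNF libraries, against 27.1, 27.6 and 25.1 CPM in Control libraries. The TNF level was 4.86-fold lower (log2 fold change -2.28 ± 0.13 SE, adjusted p = 4.19e-06 in edgeR's quasi-likelihood fit). Lgr4, the related receptor, had 18.3, 19.6 and 17.8 CPM in TNF libraries, against 22.3, 23.1 and 21.1 CPM in Control libraries. This small fall passed the threshold with all libraries (log2 fold change -0.26, adjusted p = 0.0475) but in none of the 6 repeats without 1 library (adjusted p 0.0503 to 0.147). In TPM, Rspo2 was the most abundant of these genes, with a mean of 48.0 in TNF and 29.2 in Control, and Lgr5 averaged 2.11 in TNF and 9.86 in Control.

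Of the 8 secreted inhibitors 7 fell (87.5%, against 16.4% of all tested genes) and none rose (against 16.0%). Sfrp2, which binds Wnt proteins outside the cell, had 114, 115 and 115 CPM in TNF libraries, against 379, 600 and 381 CPM in Control libraries. The TNF libraries were almost equal, and Control library 2 stood above the other Control libraries (log2 fold change -1.98 ± 0.18 SE, 3.96-fold lower in TNF, adjusted p = 6.3e-05 in edgeR's quasi-likelihood fit). Without Control library 2, which also had the highest macrophage marker sum (5106 TPM), the log2 fold change of Sfrp2 was -1.73, and the part of those markers in it was not tested. Wif1, another Wnt-binding inhibitor, had 23.7, 22.3 and 27.0 CPM in TNF libraries, against 53.4, 85.1 and 54.8 CPM in Control libraries. Sfrp1, of the same family as Sfrp2, had 47.2, 49.8 and 47.8 CPM in TNF libraries, against 75.1, 102 and 71.4 CPM in Control libraries. Both repeated that order, with Control library 2 the highest and no overlap between groups (log2 fold changes -1.41 ± 0.18 and -0.78 ± 0.13 SE).

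Dkk3, a divergent member of the Dickkopf family, had 118, 113 and 123 CPM in TNF libraries, against 231, 288 and 233 CPM in Control libraries. It fell 2.12-fold (log2 fold change -1.08 ± 0.11 SE, adjusted p = 0.00011). Dkk2, which binds Lrp co-receptors, had 17.1, 17.7 and 12.6 CPM in TNF libraries, against 26.2, 21.1 and 29.4 CPM in Control libraries, and Sfrp4 had 1.13, 0.996 and 0.959 CPM in TNF libraries, against 1.80, 1.98 and 1.83 CPM in Control libraries. Both were lower in every TNF library than in any Control library (log2 fold changes -0.70 and -0.86). Notum, a secreted enzyme that removes the fatty acid of Wnt proteins, had 1.81, 1.66 and 1.03 CPM in TNF libraries, against 2.87, 1.93 and 2.99 CPM in Control libraries. It was called lower with all libraries (log2 fold change -0.80, adjusted p = 0.0441), and lost that call on leaving out any library except Control 2 (adjusted p 0.0562 to 0.120). Frzb, an inhibitor related to the Sfrp proteins, had 0.736, 1.02 and 0.854 CPM in TNF libraries, against 0.756, 0.807 and 0.685 CPM in Control libraries and was not called (adjusted p = 0.520).

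Summed over the 8 inhibitors, TNF libraries held 219, 182 and 219 TPM, against 609, 779 and 588 TPM in Control libraries. Sfrp2 made up 50.3 ± 0.168% of this sum in TNF and 65.1 ± 2.57% in Control (SD, n = 3 each), and Dkk3 26.5 ± 0.712% in TNF and 18.8 ± 1.93% in Control. The sums of ligands and of inhibitors were thus both lower in every TNF library than in any Control library, as a description with no test.

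Among the feedback and transcription genes 4 of 5 fell (80.0%, against 16.4% of all tested genes). Nkd1, which binds Dishevelled and dampens Wnt signalling, had 0.617, 0.409 and 0.523 CPM in TNF libraries, against 4.42, 4.76 and 4.85 CPM in Control libraries. Each TNF value was far below each Control value (log2 fold change -3.16 ± 0.17 SE, 8.94-fold lower in TNF, adjusted p = 3.25e-06 in edgeR's quasi-likelihood fit). Its paralogue Nkd2 had 21.9, 16.9 and 16.6 CPM in TNF libraries, against 16.1, 14.9 and 15.4 CPM in Control libraries and was not called (log2 fold change 0.26 ± 0.12 SE, adjusted p = 0.135). In TPM, Nkd1 averaged 0.202 in TNF and 1.90 in Control, below Nkd2 at 8.23 in TNF and 7.10 in Control.

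Axin2, a scaffold of beta-catenin degradation and a widely used target gene of the pathway, had 6.71, 7.05 and 6.21 CPM in TNF libraries, against 8.23, 9.75 and 9.23 CPM in Control libraries. It fell by less than Nkd1, 1.37-fold (log2 fold change -0.45 ± 0.10 SE, adjusted p = 0.0113), and on log2 TPM with a pseudocount of 1 it missed the threshold (limma adjusted p = 0.0621). Tcf7, a transcription factor that partners beta-catenin, had 6.59, 7.46 and 6.43 CPM in TNF libraries, against 9.63, 9.65 and 10.4 CPM in Control libraries, again with no overlap (log2 fold change -0.53, adjusted p = 0.00333).

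Lef1, a related factor, had 1.63, 2.12 and 1.57 CPM in TNF libraries, against 2.65, 4.56 and 2.95 CPM in Control libraries. By counts it fell (log2 fold change -0.95 ± 0.24 SE, adjusted p = 0.0149), though not without TNF library 1 (adjusted p = 0.0641) or TNF library 3 (adjusted p = 0.0521). In the deposited TPM, Lef1 had 1.95, 1.62 and 0.792 TPM in TNF libraries, against 1.44, 2.42 and 1.54 TPM in Control libraries. On that scale the groups overlapped and the gene was not called (log2 fold change -0.21 with a pseudocount of 1, limma adjusted p = 0.50). Its counts per TPM, which depend on the transcript length assigned by the authors' processing, were 0.462 and 0.619 times the median library in TNF libraries 1 and 2, and between 0.940 and 1.07 times in the other 4. Lef1 has 4 annotated starts among the RefSeq windows. Only 3 of the 43 members (Lef1, Wnt6 and Wnt11) varied by more than 0.5 on the log2 scale in counts per TPM, 6.98% against 8.91% of all genes.

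**Figure D3:**
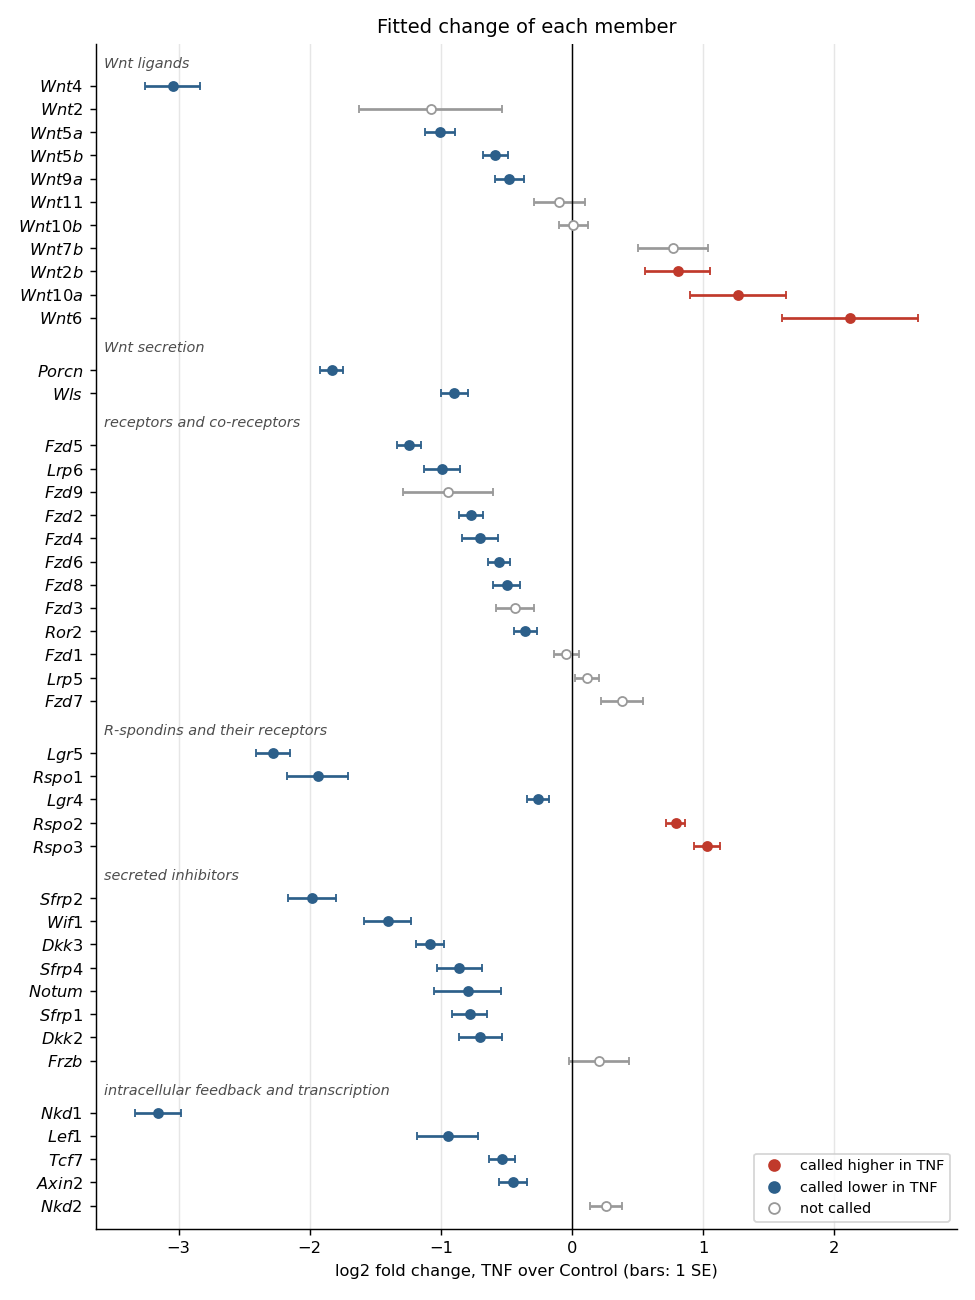
Fitted log2 fold change of each member, TNF over Control, grouped by role, with bars of 1 SE. Blue points were called lower, red points higher and open grey points were not called. The points run from -3.16 (Nkd1) to 2.12 (Wnt6), and all secreted inhibitors but Frzb lie left of 0.

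The rest of the pathway was examined through 5 lists of textbook components, 78 genes of which 73 were tested. Of these 28 fell (38.4%) and 9 rose (12.3%), against 16.4% and 16.0% of all tested genes. The higher count was 5 without TNF library 1, 4 with library totals as the scaling and 5 by limma on TPM. Among 17 genes of the beta-catenin destruction complex and its regulator Dishevelled, 1 fell and 1 rose (5.88% each). Their median log2 fold change was 0.08. Ctnnb1, which encodes beta-catenin, had 552, 592 and 595 CPM in TNF libraries, against 595, 649 and 577 CPM in Control libraries, with overlapping groups (log2 fold change -0.07 ± 0.10 SE, adjusted p = 0.649 in edgeR's quasi-likelihood fit). Dvl2 fell (-0.33 on the log2 scale), a call lost on leaving out Control 1 or 3, or TNF 1 or 3 (adjusted p 0.0524 to 0.0725). Apc2 rose (0.42), though not without TNF library 1 (adjusted p = 0.0525).

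Nuclear partners of beta-catenin had 5 lower (38.5%) and 1 higher (7.69%) of 13, where 16.4% and 16.0% of all tested genes were called. The lower calls were 2 without TNF library 1 and 3 without TNF library 2. Over all genes, 1728 of 15604 were called lower without TNF library 1 and 2073 of 15620 without TNF library 2. Tcf7l2, a TCF factor, averaged 14.3 ± 0.295 CPM in TNF and 28.3 ± 2.41 CPM in Control (SD, n = 3 each; adjusted p = 6.49e-05 in edgeR's quasi-likelihood fit). Tle2, a co-repressor of TCF factors, averaged 11.5 ± 0.762 CPM in TNF and 20.4 ± 2.87 CPM in Control. The other lower genes were Tle4 (-0.44), Cby1 (-0.39) and Tcf7l1 (-0.48), none of them called without TNF library 1 (adjusted p 0.0721 to 0.0833). Cby1 was not called without TNF library 2 either, and Tcf7l1 kept its call only without Control library 2. Tle1 was higher (0.27, adjusted p = 0.0475), and only without TNF library 3 did it pass again.

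Other surface and secreted modulators had 11 lower (68.8%) and 2 higher (12.5%) of 16, where 16.4% and 16.0% of all tested genes were called. The higher share was thus below that of all genes. Reck, a membrane protein that acts in Wnt7 signalling, averaged 18.7 ± 0.578 CPM in TNF and 38.0 ± 2.28 CPM in Control (SD, n = 3 each). Lgr6, the third R-spondin receptor, averaged 17.1 ± 1.03 CPM in TNF and 32.4 ± 1.72 CPM in Control, so all 3 Lgr receptors were called lower with all libraries. The glypican Gpc6 averaged 24.7 ± 0.486 CPM in TNF and 55.6 ± 8.98 CPM in Control. Ndp, which encodes the Frizzled ligand norrin, had 5, 3 and 5 counts in TNF libraries, against 32, 38 and 31 in Control libraries (log2 fold change -2.55 ± 0.32 SE, adjusted p = 0.000422). Ndp reached the count floor of the listed genes only through Control libraries, where it was higher, and was named after its values were seen. Its fold change is not free of that selection. Rnf43, the ubiquitin ligase that removes Frizzled receptors and is itself a target gene, averaged 2.36 ± 0.443 CPM in TNF and 5.48 ± 0.435 CPM in Control (adjusted p = 0.000474), while its partner Znrf3 was not called (adjusted p = 0.171). Apcdd1, a membrane-bound inhibitor, rose to 52.9 ± 1.21 CPM in TNF, against 34.5 ± 1.68 CPM in Control. Tspan12, the other gene called higher, lost its call on leaving out Control 3 or TNF 1 or 3 (adjusted p 0.0735 to 0.0867).

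Planar polarity and other beta-catenin-independent genes had 4 lower (26.7%) and 2 higher (13.3%) of 15, with a median log2 fold change of 0.006, where 16.4% and 16.0% of all tested genes were called. The share of higher calls was thus no larger than the background. Daam2 and Daam1, related formin proteins that bind Dishevelled, moved in opposite directions. Daam2 had 70.1, 72.2 and 62.2 CPM in TNF libraries, against 227, 186 and 247 CPM in Control libraries. Daam1 had 35.6, 40.6 and 36.1 CPM in TNF libraries, against 21.7, 21.9 and 19.0 CPM in Control libraries. Neither overlapped between groups (log2 fold changes -1.69 ± 0.12 and 0.84 ± 0.09 SE, adjusted p = 1.6e-05 and 0.000211 in edgeR's quasi-likelihood fit). Prickle1 (-0.98), Prickle2 (-1.02) and Ptk7 (-0.63, not called without TNF library 1, adjusted p = 0.0564) fell. Celsr1, under 0.5 CPM, was called higher (adjusted p = 0.0492) and lost that call on leaving out Control 2 or 3, or TNF 1 or 2 (adjusted p 0.105 to 0.171). Vangl1, Vangl2 and Ror1 were not called.

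Textbook target genes outside the members had 7 lower and 3 higher of 12, where 16.4% and 16.0% of all tested genes were called. Both shares were thus above those of all genes, the higher one resting on only 3 genes. Tnfrsf11b, which encodes osteoprotegerin, a decoy receptor that limits bone resorption, had a log2 fold change of -1.12. Tnfrsf19, a TNF receptor family member, averaged 4.78 ± 1.16 CPM in TNF and 12.8 ± 0.278 CPM in Control (SD, n = 3 each). Runx2, a transcription factor of osteoblasts, fell too (log2 fold change -0.91). The 3 that rose were Cd44 (1.27), a hyaluronan receptor, Fosl1 (0.83), an AP-1 subunit, and Myc (0.47). Ccnd1 was not called (adjusted p = 0.327).

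**Figure D4:**
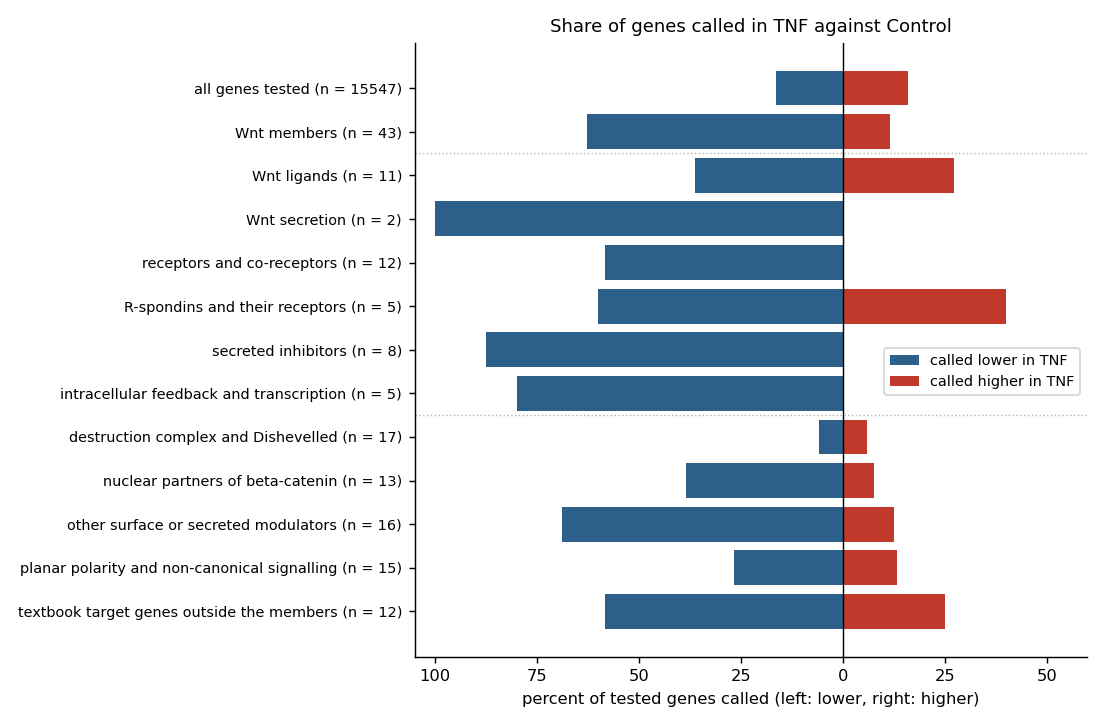
Percent of tested genes called lower (left, blue) and higher (right, red) in TNF against Control, for all 15547 tested genes, for the 43 Wnt members and their 6 roles, and for 5 lists of other pathway genes, with the number tested beside each name. The secreted inhibitors (7 of 8 lower) and both secretion genes extend farthest left, and the destruction complex list (1 of 17 lower and 1 higher) is short on both sides.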

How the data were processed

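Per the submitters' processing notes, reads were handled with Trim Galore, STAR, StringTie and Salmon on genome build GRCm39. Versions, settings and annotation release are not given in the sources used here. Libraries were made with a stranded SMART-Seq kit, per the labels' protocols. The authors deposited 2 files per library, 1 of expected counts per gene as whole numbers with no gene names, and 1 of TPM with gene names. The title line of the count files says normalized and the column name says raw, per the file headers. Totals differ between libraries, so the values were used as counts. The count and TPM files were joined line by line: all 260 zeros coincide, and the median SD of log2 counts per TPM over libraries was 0.0275, against 0.413 with lines moved by 1. Every listed gene had at least 10 counts in at least 3 libraries.

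The main test was that of edgeR 4.0.16 under R 4.3.3 (filterByExpr, TMM factors, glmQLFit and glmQLFTest on group, two-sided), adjusted by Benjamini-Hochberg over 15547 genes and called at an adjusted p under 0.05. Simulated counts with known changes were used to test the fits. CPM use TMM factors, and SE is the log2 fold change over the square root of F. The alternatives were RLE factors, library totals, DESeq2 1.42.0, limma 3.58.1 (voom, or log2 TPM with a pseudocount of 1 or 0.1), other count filters, a threshold of 0.01, blocking on replicate number, and dropping 1 library at a time. Leaving out both libraries numbered 2 was chosen after seeing the data.

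The members and lists were chosen with earlier results of these data known. Each called member is named, with values in each library for most. Of the other pathway lists, up to 4 called genes with the smallest adjusted p are named. Further genes named there, such as Ndp, Rnf43, Znrf3 and Myc, and the named markers were chosen after their values were seen. Promoter windows, on RefSeq's GRCm38.p6, were matched by symbol. Members of these families that were not among the listed genes, such as Dkk1, Rspo4 and Wnt3a, were not analysed here.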

Additional observations from a re-analysis of the deposited data

How the results depend on the processing

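No called member changed sign under any alternative. Members called lower numbered 27 with all libraries, 20 to 28 under the other settings and 24 to 26 leaving out 1 library. Members called higher were 5, and 3 by limma on TPM (log2, pseudocount 1) and likewise 3 with 0.1, 2 with a mean CPM of at least 1 (7 members untested), 2 at an adjusted p under 0.01 and 2 to 4 leaving out 1 library. All genes called were 5039, against 3121 at an adjusted p under 0.01 and 3449 to 4795 leaving out 1 library. Other pathway genes called higher were 9, with 4 under library totals, 5 by limma on log2 TPM with either pseudocount, 5 at an adjusted p under 0.01 and 5 to 10 leaving out 1 library, and those called lower were 28, and 19 to 27 leaving out 1 library. The cause of these moves was not tested, except that a stricter threshold or filter tests or calls fewer genes by construction. Without both libraries numbered 2 the counts were 27 lower and 5 higher members, of which 2 higher calls were exchanged.

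The labels do not say whether replicate numbers pair the samples. Deviations from group means correlated at -0.01, -0.30 and -0.22 for same-numbered libraries, and at -0.23 to 0.36 for the others. With 3 libraries a group, such values cannot exclude pairing. With the replicate block 25 members were lower and 3 higher, of 3980 genes called, and other pathway genes were 23 lower and 6 higher. With 3 libraries a group, members under 1 CPM, such as Wnt2, Wnt6 and Fzd9, are limited by their few counts.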
